A study of Mus musculus with 15 samples.

Results

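The T cell receptor (TCR) alpha loops described here are those built with 3 joining segments from the middle of the mouse alpha locus. They are all peptides, in the CDR3 lists of 15 libraries, that end in SGNKLI (TRAJ32), NAGAKLT (TRAJ39) or SNAKLT (TRAJ42). They numbered 7744 of the 92219 distinct CDR3 peptides: 3160 with the TRAJ32 end, 1968 with the TRAJ39 end and 2616 with the TRAJ42 end. The CDR3 is the part of the chain that reaches over the bound peptide, and a list gives each CDR3 without its conserved outermost residues, with its number of reads. All mice were C57BL/6 males that carried the transgene TCRbtg, a fixed TCR beta chain, so that only the alpha chain could vary freely. The 5 Naive libraries came from CD8b+ CD4neg CD44lo CD122neg cells and the 5 MP (memory-phenotype) libraries from CD8b+ CD4neg CD44hi CD122+ cells, both taken at the age of 9 weeks from spleen and lymph node. The 5 Tumour libraries came from CD8b+ CD4neg cells, with no gate on CD44 or CD122, from the prostate tumours of mice aged 27 weeks that carried TCRbtg and TRAMP+/-. TRAMP mice carry a viral oncogene under the probasin promoter, which acts in prostate epithelium. In any comparison with tumours, the effects of tissue, age, the TRAMP transgene and the gate cannot be told apart.

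A TCR alpha chain is made in the thymus by joining one of many V segments to one of many J segments. The joint may lose bases from both segments and gain others, and a cell can join again to J segments farther along the locus when a first chain is not selected. The start of a CDR3 is therefore set by the V segment, its end by the J segment and the residues between them by the joint. In the RefSeq gene table of GRCm38.p6, which was used for names and order only, Traj42, Traj39 and Traj32 stand in this order on the way from the V segments to the constant region. The ends of TRAJ39 and TRAJ42 close with the same 3 residues, KLT, and that of TRAJ32 with KLI.

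Each end could be followed farther back into the loop. The end was lengthened for as long as at least 30% of the distinct Naive CDR3s shared the next residue, which gave the common ends below. They are shown because the mean share of reads that kept them whole differed between the groups.
Common TRAJ32 end: NYGSSGNKLI.
Common TRAJ39 end: NNNAGAKLT.
Common TRAJ42 end: NSGGSNAKLT.
The loops that follow either led an end in a group by their mean share of reads or recurred across its libraries. They are shown because they hold the contrast between the groups: the same J end followed different residues. They were not matched to V segments.
Naive with TRAJ32: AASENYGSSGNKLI.
Memory-phenotype (MP 5) with TRAJ32: AHQNYGSSGNKLI.
Memory-phenotype (all 5) with TRAJ32: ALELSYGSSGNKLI.
Tumour with TRAJ32: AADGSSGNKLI.
Naive with TRAJ39: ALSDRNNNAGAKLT.
Memory-phenotype with TRAJ39: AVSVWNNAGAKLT.
Tumour (4 of 5) with TRAJ39: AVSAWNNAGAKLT.
Tumour 4 with TRAJ39: VGNAGAKLT.
Naive with TRAJ42: AFGGSNAKLT.
Memory-phenotype with TRAJ42: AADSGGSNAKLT.
Tumour 3 with TRAJ42: AVIPGGSNAKLT.

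The libraries held between 547665 and 943699 reads. Naive libraries listed 14914 to 29559 distinct CDR3s, Tumour libraries 934 to 2657, and MP libraries 2, 3 and 4 between 2216 and 3392, whereas MP 1 and MP 5 listed 12401 and 13950. Results that rest on MP 1 and MP 5 are therefore given without them as well. Of the reads, 89.5 to 97.9% matched one of 43 J segment ends. The TRAJ33 end, which the invariant chain of MAIT cells shares with ordinary chains, took 1.02% ± 0.0903 of Naive, 0.392% ± 0.0933 of MP and 0.872% ± 0.120 of Tumour reads (SD, n = 5), and the TRAJ18 end, which the invariant chain of iNKT cells shares with ordinary chains, took 0.129% ± 0.0154, 0.637% ± 0.454 and 0.375% ± 0.250. Neither is one of the 3 ends, a J end alone does not identify these cells, and the CD8b+ CD4neg gate leaves out most iNKT cells; their part in the results was not tested. In bulk RNA, fewer cells with a chain and less of its RNA per cell cannot be told apart.

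TRAJ32 and TRAJ42 had their highest mean read share in Naive libraries, and TRAJ39 in tumours, where Tumour 4 was far above the others. TRAJ32 was lower in tumours than in Naive libraries. TRAJ42 was lower than in Naive libraries in both other groups. TRAJ39 was higher in MP than in Naive libraries. Shares were compared by exact two-sided permutation tests over the libraries, with Benjamini-Hochberg adjustment over all segment ends.

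**Figure D1:**
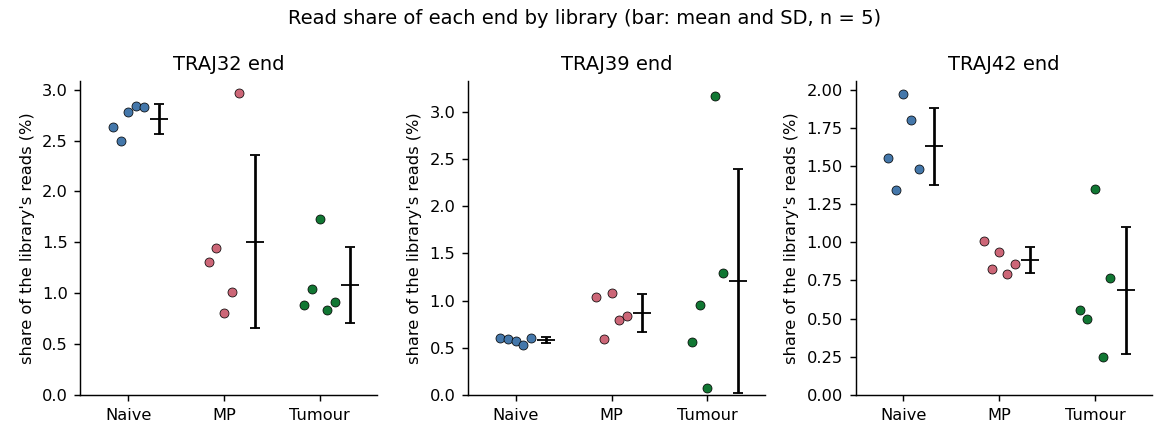
Share of each library's reads (vertical axis, %) held by CDR3s with the TRAJ32, TRAJ39 or TRAJ42 end, for 5 Naive, 5 MP and 5 Tumour libraries; each point is 1 library, and the bar gives the mean and SD. Naive libraries lie close together, MP 5 stands at 2.97% for TRAJ32, and Tumour 4 stands at 3.17% for TRAJ39.

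TRAJ32 took 2.63, 2.50, 2.78, 2.84 and 2.83% of reads in Naive libraries 1 to 5. In MP it took 1.31, 1.44, 0.810, 1.01 and 2.97%. In tumours it took 0.882, 1.04, 1.73, 0.834 and 0.911%. All 5 tumours lay below all 5 Naive libraries, and 4 of 5 MP libraries did, with MP 5 above them. Tumours were 1.64 percentage points below Naive libraries (1.08% ± 0.371 against 2.72% ± 0.148; SD, n = 5 each; exact permutation test, adjusted p = 0.0310), a call lost when Tumour 2, Tumour 5 or any 1 Naive library was left out, where 9 libraries allow no p below 0.0159. Of 39 segment ends, 30.8% were lower and 2.56% higher in tumours by this test. MP was 1.21 percentage points below Naive (1.51% ± 0.854; exact permutation test, adjusted p = 0.0614), which did not pass. Without MP 5 the difference was -1.57 percentage points and passed (exact permutation test, adjusted p = 0.0238), as it did without MP 1 and MP 5 (-1.63 percentage points, adjusted p = 0.0497). Of 40 segment ends, 52.5% were lower and 22.5% higher in MP than in Naive libraries.

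TRAJ39 took the least of the 3 in Naive libraries, at 0.607, 0.590, 0.567, 0.531 and 0.602% of reads. In MP it took 1.04, 0.591, 1.08, 0.797 and 0.833%. In tumours it took 0.558, 0.952, 0.0775, 3.17 and 1.29%, a span that reached below and above both other groups. MP rose by 0.289 percentage points over Naive (0.869% ± 0.199 against 0.579% ± 0.0310; exact permutation test, adjusted p = 0.0340), and 4 of 5 MP libraries lay above all Naive ones. This call is not firm: without MP 1 and MP 5 the difference was 0.244 percentage points (adjusted p = 0.135, exact permutation test), and leaving out any 1 of MP 1, 3, 4 and 5 or of Naive 2, 3 and 4 also ended it. Tumours were 0.629 percentage points above Naive and 0.339 above MP on average, neither of which passed (exact permutation test, adjusted p = 0.438 and 0.802), and without Tumour 4 the difference from MP was -0.150.

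TRAJ42 took 1.55, 1.34, 1.97, 1.80 and 1.48% of reads in Naive libraries. In MP it took 1.01, 0.828, 0.934, 0.791 and 0.855%, all below the lowest Naive library. In tumours it took 0.559, 0.496, 1.35, 0.251 and 0.768%, with Tumour 3 just above the lowest Naive library. MP fell by 0.743 percentage points from Naive (0.884% ± 0.0884 against 1.63% ± 0.253; exact permutation test, adjusted p = 0.0127), and this held with each library left out. Tumours were lower than Naive by 0.941 percentage points (0.686% ± 0.417; exact permutation test, adjusted p = 0.0476), a call lost when any 1 library but Tumour 3 was left out. Between Tumour and MP none of the 3 ends passed, where 7.5% of 40 ends were higher and 15% lower in tumours. Without Tumour 3, the TRAJ42 difference from MP was -0.365 percentage points and passed (exact permutation test, adjusted p = 0.0454).

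Counting each distinct CDR3 once gave a narrower picture. TRAJ32 made up 3.80% ± 0.0621 of the distinct CDR3s of Naive libraries, 3.05% ± 0.676 of those of MP and 2.01% ± 0.832 of those of Tumour libraries. Its difference between Tumour and Naive, -1.79 percentage points, passed (exact permutation test, adjusted p = 0.0281), and any 1 Naive library left out ended the call. That between MP and Naive, -0.756, did not (adjusted p = 0.0529, exact permutation test), but it passed without MP 5 (-0.931 percentage points, adjusted p = 0.0413). Neither TRAJ39 nor TRAJ42 passed by distinct CDR3s in any comparison. Over all ends, in either direction, 37.5% passed between MP and Naive, 0% between Tumour and MP (13 of 40 at an unadjusted p under 0.05) and 48.7% between Tumour and Naive. TRAJ42 was split within the Naive group: it made up 3.45 and 3.48% of the distinct CDR3s in Naive 3 and Naive 4 and 2.38, 2.12 and 2.23% in Naive 1, 2 and 5.

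Loop length moved for 1 end. Weighted by reads, TRAJ42 loops had a mean of 11.95 ± 0.21 residues for Naive, 12.35 ± 0.18 for MP and 12.96 ± 0.62 for Tumour libraries (SD, n = 5). They were longer by 0.396 residues in MP than in Naive (exact permutation test, adjusted p = 0.0454) and by 1.01 in Tumour than in Naive libraries (adjusted p = 0.0442). All 5 tumours lay above all 5 Naive libraries. Both calls are weak: the first was lost with any 1 library but MP 4 left out and without MP 1 and MP 5 (0.343 residues, adjusted p = 0.167), and the second with any 1 library left out. TRAJ42 loops of tumours were longer than those of MP by 0.614 residues, which passed only without Tumour 2 (0.781 residues; exact permutation test). TRAJ32 loops averaged 13.20, 13.00 and 12.72 residues and TRAJ39 loops 11.96, 12.08 and 11.55 in the same groups, and no difference passed with all libraries. Without MP 4, TRAJ32 loops were shorter and TRAJ39 loops longer in MP than in Naive libraries (-0.289 and 0.166 residues) by the test. Over all ends, in either direction, length passed for 52.5% between MP and Naive, 33.3% between Tumour and MP and 17.9% between Tumour and Naive. Tumour 4, where VGNAGAKLT held 82.3% of TRAJ39 reads, had a TRAJ39 mean of 9.54 residues, and without it the difference from Naive was 0.0985 in place of -0.404 residues. Loops of 15 residues or more numbered 449 with the TRAJ32 end, 88 with TRAJ39 and 335 with TRAJ42, and are not named one by one.

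**Figure D2:**
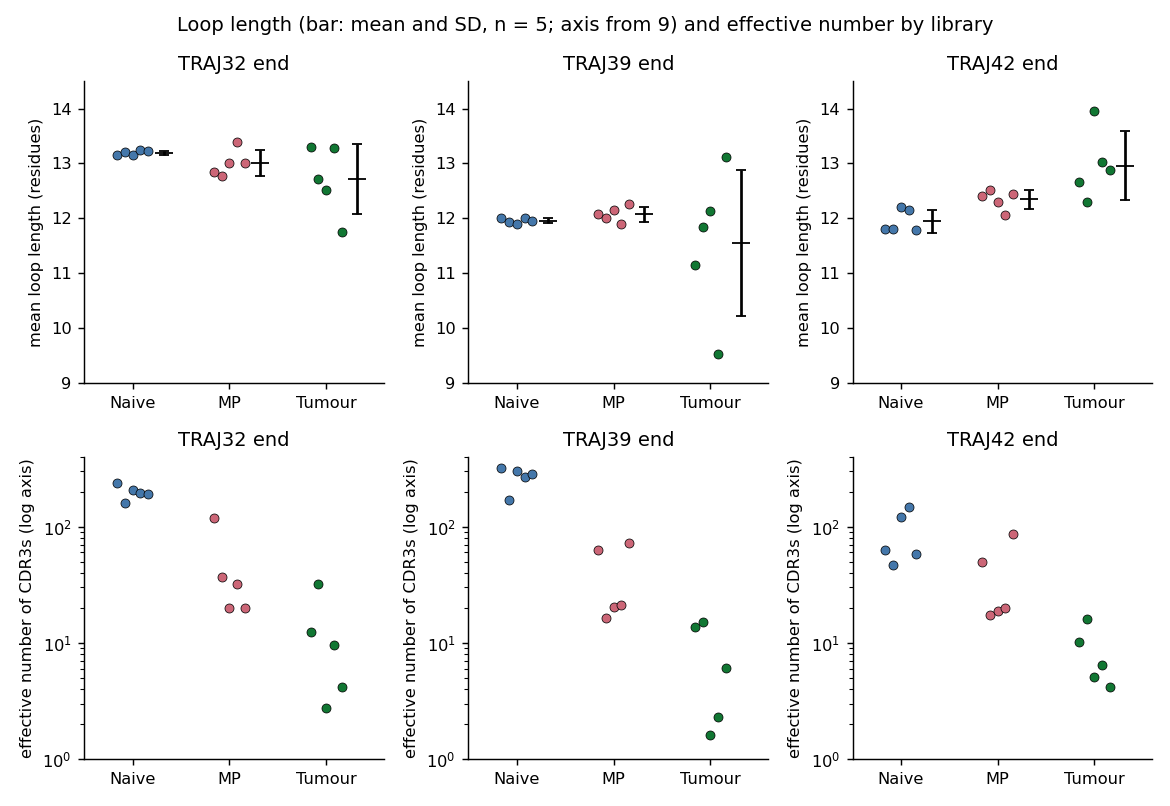
Top row: mean loop length in residues weighted by reads (axis from 9), with the mean and SD of each group; bottom row: effective number of CDR3s on a log axis; each point is 1 of 5 libraries per group. TRAJ42 loops average 11.95 residues in Naive and 12.96 in Tumour libraries, and in all 3 ends the tumours have the lowest mean effective number, with values down to 1.61 for TRAJ39 in Tumour 3.

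How many CDR3s shared the reads of an end, and how evenly, is given together by the effective number of CDR3s. It is the exponential of the Shannon entropy and equals the count of CDR3s when all have the same share. For TRAJ32 it was 160 to 239 in Naive, 19.9 to 119 in MP and 2.76 to 32.2 in Tumour libraries. For TRAJ39 it was 171 to 321, 16.2 to 72.0 and 1.61 to 15.2. For TRAJ42 it was 47.2 to 149, 17.5 to 86.1 and 4.14 to 16.1. TRAJ39 thus had the smallest share of Naive reads of the 3 and the highest mean effective number there, and TRAJ42 the lowest. The groups also differed widely in the number of CDR3s listed, which enters this value. The Naive means depend on CDR3s of few reads: without those under 10 reads they were 93.2 in place of 198 for TRAJ32, 61.3 in place of 268 for TRAJ39 and 25.1 in place of 87.7 for TRAJ42. TRAJ32 then stood above TRAJ39, so the order of these 2 ends is not firm.

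Recurrence between libraries followed the groups. Of 2638 TRAJ32 CDR3s listed in Naive libraries, 192 were listed in all 5 and held 72.9% ± 1.84 of the TRAJ32 reads there. Of 1602 TRAJ39 CDR3s, 37 were in all 5 Naive libraries and held 25.5% ± 0.582, and of 2232 TRAJ42 CDR3s, 58 held 63.9% ± 7.58. Over all CDR3s, 4440 of 73948 were in all 5 Naive libraries and held 78.7% ± 0.548 of reads. In MP, 5 of 920 TRAJ32, 6 of 526 TRAJ39 and 4 of 690 TRAJ42 CDR3s were in all 5 libraries. They held 25.2% ± 8.26, 35.6% ± 1.72 and 38.4% ± 3.97 of the reads of their end. Over all CDR3s, 483 of 25439 were in all 5 MP libraries and held 65.8% ± 1.39 of reads, more than in each of the 3 ends. In tumours, 1 of 162 TRAJ32 CDR3s was in all 5, and none of 110 with TRAJ39 or of 132 with TRAJ42 was. Over all CDR3s this held for 70 of 6146. CDR3s found in 1 tumour only held 73.9% ± 19.9, 77.1% ± 13.2 and 77.8% ± 18.6 of the tumour reads of the 3 ends, against 35.3% ± 8.18 over all CDR3s. No member was listed in more than 12 of the 15 libraries.

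Single CDR3s were compared with edgeR's quasi-likelihood test over all CDR3s that reached 10 reads in 3 or more libraries, with Benjamini-Hochberg adjustment. A CDR3 enters this test only if it is frequent in some group, so the counts describe those tested and not all members. Between MP and Naive, 225 TRAJ32, 75 TRAJ39 and 100 TRAJ42 CDR3s were tested. With the TRAJ32 end 10 were higher and 112 lower in MP, with TRAJ39 11 and 24, and with TRAJ42 4 and 23. The shares higher were 4.44, 14.7 and 4.00% of those tested, and over all 5954 CDR3s 12.6% were higher and 48.1% lower. Over the 3 ends, 119 of the 159 lower ones were listed in no MP library and 11 of the 25 higher ones in no Naive library. Over all CDR3s these were 2138 of 2863 and 353 of 753. Such CDR3s passed the filter only through the group where they were high, which fixed their direction. The same goes for CDR3s named below, higher or lower, that 1 of the 2 groups compared did not list in the libraries used. For those that reached 10 reads in 1 group only, the filter favoured that direction. The median log2 fold change was -3.43 for TRAJ32, -0.865 for TRAJ39 and -1.39 for TRAJ42, beside -3.35 over all. The TRAJ39 median moved with the filter and the libraries: it was 3.90 over the 17 CDR3s with 50 reads in 3 libraries, of which 52.9% were higher (25.1% over all), and -3.31 with no filter, where 7.50% were higher (7.97% over all). It was 0.00159 without Naive 1, and without MP 1 and MP 5 the medians were -7.12, -6.40 and -6.33, beside -6.98 over all. The counts by end also moved with single libraries. TRAJ32 had 6 in place of 10 higher without any 1 Naive library. TRAJ39 had 7 in place of 11 higher without Naive 1, Naive 3 or Naive 5, and 11 in place of 24 lower without Naive 1 and 15 without Naive 2. TRAJ42 had 2 in place of 4 higher without Naive 4 or MP 1, and 10 in place of 23 lower without Naive 3 or Naive 4 and 14 without Naive 1. Without MP 1 and MP 5, 12 in place of 25 CDR3s of the 3 ends were higher and 217 in place of 159 lower, and without Naive 3, Naive 4 or Naive 5 as few as 16 were higher.

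Between Tumour and MP, 1 of 35 TRAJ32, 1 of 33 TRAJ39 and 0 of 18 TRAJ42 CDR3s were higher in tumours and 22, 22 and 8 were lower, beside 7.68% higher and 66% lower of 1666. Over the 3 ends, 49 of the 52 lower ones were listed in no tumour, as were 979 of 1100 over all CDR3s, so the filter fixed their direction. Without MP 1 and MP 5 the 52 lower CDR3s became 9, with 25 in place of 86 tested, and without MP 1 or MP 5 alone as few as 24 were lower. By end, the counts lower were then 11 or 12 for TRAJ32, 10 for TRAJ39 and 3 or 4 for TRAJ42, which had 5 without MP 3. The 2 that were higher became 1 without Tumour 1, Tumour 2 or Tumour 4. Between Tumour and Naive, 1 of 180, 2 of 46 and 0 of 64 were higher and 166, 36 and 52 lower, beside 3.38% higher and 86.7% lower of 4671. Over the 3 ends, 241 of the 254 lower ones were listed in no tumour, as were 3816 of 4051 over all CDR3s, so the filter fixed their direction too. Of the lower ones, TRAJ39 had 17 without Naive 1, and TRAJ42 had 27, 29 and 34 without Naive 3, 4 and 5. The count of TRAJ39 CDR3s higher than in Naive libraries was 1 in place of 2 without Tumour 2 or any 1 Naive library. For TRAJ42, edgeR found 0 CDR3s higher in tumours in either comparison also at an unadjusted p under 0.05, and DESeq2 called 0. With no filter on low counts, edgeR called 3 of 149 TRAJ42 CDR3s higher in tumours than in MP and 1 of 666 higher than in Naive libraries. The comparisons with tumours share the Tumour libraries, and MP against Naive shares its libraries with both.

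**Figure D3:**
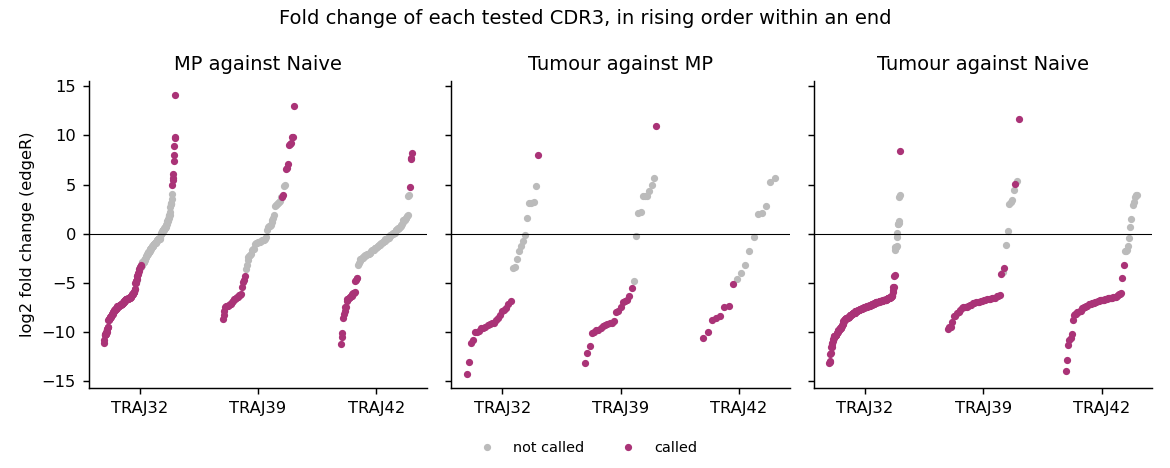
Log2 fold change (edgeR, vertical axis) of each tested CDR3, sorted in rising order within the TRAJ32, TRAJ39 and TRAJ42 ends (horizontal axis), for MP against Naive, Tumour against MP and Tumour against Naive; coloured points passed an adjusted p under 0.05 and grey ones did not. Most called CDR3s lie below 0 in each comparison, and between MP and Naive 10 of 225, 11 of 75 and 4 of 100 are called above 0.

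TRAJ32 in Naive libraries was led by loops that kept the whole common end, which was itself defined from Naive CDR3s. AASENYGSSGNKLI took 0.146, 0.121, 0.165, 0.203 and 0.208% of reads in Naive 1 to 5. It was listed in MP 1 and MP 5 only, at 0.000680 and 0.00190%, and in no tumour. Every Naive library lay far above every other library, and the log2 fold change, MP over Naive, was -8.29 ± 1.58 (SE; edgeR adjusted p = 0.00147). ATLNYGSSGNKLI, at 0.158% ± 0.0388, and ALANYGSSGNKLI, at 0.143% ± 0.0258 of Naive reads, also fell in MP (log2 fold changes -6.55 and -6.57; edgeR adjusted p = 0.0187 and 0.0115) and were not listed in tumours. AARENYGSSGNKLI, which differs from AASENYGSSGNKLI by 1 residue, held 0.0892% ± 0.00692 of Naive reads and fell in MP (-6.03; edgeR adjusted p = 0.0233). The shorter ALYGSSGNKLI, which lacked the first residue of that end, held 0.0865% ± 0.0132 of Naive reads. It was listed in all 5 MP libraries, at 0.00854% ± 0.00588, a log2 fold change of -3.34 (edgeR adjusted p = 0.00221).

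Most TRAJ32 loops of MP, 720 of 920 (78.3%, beside 77.4% over all CDR3s), were listed in 1 MP library, but 3 of the most abundant were in all 5. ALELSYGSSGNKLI took 0.132, 0.161, 0.128, 0.143 and 0.138% of MP reads, against 0.00126 to 0.00435% in Naive libraries and none in tumours. It rose over Naive by 5.66 ± 0.61 on the log2 scale (SE; edgeR adjusted p = 0.000587). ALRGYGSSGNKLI took 0.182, 0.114, 0.0959, 0.0928 and 0.161% and rose by 7.43 ± 1.36 (edgeR adjusted p = 0.00121). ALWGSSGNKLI, at 0.0314% ± 0.0148 in all 5, rose by 6.09 (edgeR adjusted p = 0.000870). The most abundant by mean, AHQNYGSSGNKLI, was uneven: it took 1.60% of the reads of MP 5 (95% Wilson interval 1.57 to 1.63%) and 53.9% of its TRAJ32 reads. It took 0.00998, 0.0636 and 0.0202% in MP 2, 3 and 4 and was not listed in MP 1, in Naive libraries or in tumours. It passed against Naive with MP 5 (log2 fold change 14.11; edgeR adjusted p = 0.0188) and without it (10.25; adjusted p = 0.0189). MP alone let it enter this test, which fixed its direction. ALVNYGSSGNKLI showed no such gap, at 0.0547% ± 0.0115 of Naive and 0.0371% ± 0.0255 of MP reads (log2 fold change -0.56 ± 1.11 SE; edgeR adjusted p = 0.690).

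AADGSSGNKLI was the only TRAJ32 loop listed in all 5 tumours, and it led TRAJ32 in Tumour 2 and Tumour 3. It took 0.0493, 0.144, 1.000, 0.106 and 0.0388% of reads in Tumour 1 to 5. In Naive libraries it reached at most 0.00157% and in MP at most 0.00409%, so that the groups did not overlap. Its log2 fold change was 8.38 ± 1.59 against Naive (SE; edgeR adjusted p = 0.000702) and 7.97 ± 2.44 against MP (edgeR adjusted p = 0.0167). Without Tumour 3, where it made up 57.9% of TRAJ32 reads, it was 6.72 (adjusted p = 0.000357) and 6.31 (adjusted p = 0.0286). The other leading TRAJ32 loops of tumours were each in 1 tumour: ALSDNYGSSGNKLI at 0.266% in Tumour 4, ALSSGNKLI at 0.339% and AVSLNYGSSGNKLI at 0.226% in Tumour 5, and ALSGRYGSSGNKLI at 0.257% in Tumour 3. In Tumour 1 a loop of 15 residues led, at 0.229%. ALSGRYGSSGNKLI was listed in no other library.

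The leading TRAJ39 loops of Naive libraries and of MP were different ones. In each of the 5 Naive libraries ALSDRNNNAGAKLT, with the whole common end, led at 0.0367, 0.0226, 0.0336, 0.0328 and 0.0382% of reads. It was listed in MP 5 alone among MP libraries, at 0.000292%, and fell by 8.73 ± 1.32 on the log2 scale (SE; edgeR adjusted p = 0.000662). In Tumour 2 it stood at 0.0112%. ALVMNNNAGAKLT, at 0.0129% ± 0.00510, and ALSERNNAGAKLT, at 0.00918% ± 0.000776 of Naive reads, were lower in MP as well (log2 fold changes -4.33 and -4.93; edgeR adjusted p = 0.0474 and 0.0169). The call of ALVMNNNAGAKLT was lost when any 1 library but MP 1 was left out. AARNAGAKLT and AFGNAGAKLT, 2 short loops, did not pass between MP and Naive: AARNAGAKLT took 0.0147% ± 0.00510 of Naive and 0.00940% ± 0.0102 of MP reads, and AFGNAGAKLT 0.0134% ± 0.00412 and 0.0178% ± 0.0260.

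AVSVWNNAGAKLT took the lead in MP. It held 0.205, 0.0235, 0.210, 0.170 and 0.183% of reads in MP 1 to 5 and was listed in no Naive library and no tumour. The log2 fold change against Naive was 13.01 ± 1.27 (SE; edgeR adjusted p = 0.000662). MP alone let it enter this test, which fixed its direction. Against 3 reads per Naive library it was at least 315-fold higher. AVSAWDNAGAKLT held 0.100, 0.122, 0.0747, 0.0360 and 0.0596% in MP, led in MP 2, where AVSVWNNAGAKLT was low, and was listed in Naive 4 alone among the other libraries, at 0.000362% (log2 fold change 9.79 ± 1.38 SE; edgeR adjusted p = 0.000662). ALPNAGAKLT, at 0.0283% ± 0.00996 in all 5 MP libraries, rose by 7.07 (edgeR adjusted p = 0.00332). ATENNAGAKLT was high in MP 2 and MP 4, at 0.111 and 0.107%, and did not pass (log2 fold change 4.99 ± 2.48 SE; edgeR adjusted p = 0.108).

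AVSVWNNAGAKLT and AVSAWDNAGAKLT belong to a family, which was chosen after its values were seen and is described without a test. It holds the TRAJ39 CDR3s that start with AVS, which was not matched to a V segment here, and have tryptophan (W) at position 5 of the loop. The family numbered 52 CDR3s, of which 44 were listed in MP, 10 in Naive libraries and 5 in tumours. Of all 92219 CDR3s, 25439, 73948 and 6146 were listed in these groups. MP 1 and MP 5, with the longest lists of MP, held 28 and 26 of the family, and MP 2, 3 and 4 held 7, 9 and 6. Naive libraries listed 0 to 6 of them each. The family held 39.4, 33.3, 36.1, 30.6 and 39.9% of the TRAJ39 reads of MP 1 to 5. In Naive libraries it held 0.657, 0, 0.645, 1.40 and 1.02%. In tumours it held 18.8, 6.27, 0, 2.24 and 8.79%. The MP libraries thus lay above all others, and 4 of 5 tumours lay above all Naive libraries. Of all reads with this start and tryptophan and an assigned end, 51.1 to 98.2% ended as TRAJ39 in MP, against 0 to 8.27% in Naive libraries. In the 4 tumours that listed such reads the shares were 92.7, 100, 23.3 and 100%, so most of these tumours lay in the range of MP or above it.

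Another member of the family was frequent in tumours. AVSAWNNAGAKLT took 0.0615, 0.0488, 0.0708 and 0.112% of reads in Tumour 1, 2, 4 and 5 and was not listed in Tumour 3. In MP it was listed in MP 1 and MP 5 only, at 0.00283 and 0.00629%, and in Naive libraries not at all. It was higher in tumours than in Naive libraries (log2 fold change 11.67 ± 2.34 SE; edgeR adjusted p = 0.00417), but tumours alone let it enter that test, which fixed its direction. Against MP it did not pass (4.99 ± 2.42; edgeR adjusted p = 0.0798) unless MP 1 and MP 5 (11.74; adjusted p = 0.0327) or Tumour 3 (5.31; adjusted p = 0.0417) were left out. ALPNNAGAKLT took 0.0171, 0.0646 and 0.0818% in Tumour 1, 2 and 4, 0.000362 to 0.00141% in Naive libraries and none in MP. It passed against MP (log2 fold change 10.92; edgeR adjusted p = 0.0183), though not without MP 1 and MP 5 (adjusted p = 0.0777). It passed against Naive (5.04; edgeR adjusted p = 0.0245), though not when any 1 Naive library was left out (adjusted p up to 0.0602). It entered both tests only through these 3 tumours, which fixed its direction against MP. Without any 1 of them it had too few reads to enter.

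The most abundant TRAJ39 loop differed in each tumour. VGNAGAKLT took 2.61% of the reads of Tumour 4 (95% Wilson interval 2.57 to 2.64%) and 82.3% of its TRAJ39 reads, and was listed in no other library. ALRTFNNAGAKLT led in Tumour 2 at 0.214%, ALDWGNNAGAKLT in Tumour 1 at 0.0790%, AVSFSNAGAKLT in Tumour 3 at 0.0666% and a loop of 15 residues in Tumour 5 at 0.426%. None of these was listed in a Naive library. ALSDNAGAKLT, in contrast, was in 9 libraries of all 3 groups, at 0.0755% in Tumour 2 and 0.137% in Tumour 5, and did not pass in any comparison.

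TRAJ42 in Naive libraries rested on a few loops. AFGGSNAKLT led in each of them, at 0.328, 0.324, 0.262, 0.226 and 0.286% of reads, was listed in MP 1 at 0.0177% and in no other library. It was lower in MP (log2 fold change -6.32 ± 2.16 SE; edgeR adjusted p = 0.0285), a call lost without Naive 1 (adjusted p = 0.0501) or Naive 2 (adjusted p = 0.0510). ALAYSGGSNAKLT took 0.219% ± 0.0375 of Naive reads and fell in MP (log2 fold change -8.57 ± 1.69; edgeR adjusted p = 0.00176), yet led Tumour 5 at 0.350% and was listed in no other tumour. Its log2 fold change, Tumour over Naive, was -1.64 (edgeR adjusted p = 0.522), and -13.51 without Tumour 5 (adjusted p = 1.25e-05). The third loop by abundance, of 12 residues, had 0.132% ± 0.0214 of Naive reads, fell in MP (-7.41; edgeR adjusted p = 0.00294) and was not listed in tumours. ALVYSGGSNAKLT, 1 residue away from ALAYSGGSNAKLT, took 0.0473% ± 0.0164 in Naive libraries and was listed nowhere else (MP over Naive -11.26 ± 1.00 SE on the log2 scale; edgeR adjusted p = 0.000662). The filter thus fixed its direction. Against 3 reads per MP library it was at least 108-fold lower in MP. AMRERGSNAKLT, at 0.0595% ± 0.0222, fell in MP and in tumours (log2 fold changes -4.84 and -6.61; edgeR adjusted p = 0.00341 and 0.00724).

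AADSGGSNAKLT led TRAJ42 in every MP library, at 0.241, 0.187, 0.183, 0.237 and 0.193% of reads. In Naive libraries it reached at most 0.00174%, and the log2 fold change was 7.67 ± 1.02 (SE; edgeR adjusted p = 0.000662). Among tumours it was in Tumour 1 alone, at 0.0419%, and Tumour against MP did not pass (-4.63; edgeR adjusted p = 0.110) but did without Tumour 1 (-13.59; adjusted p = 0.0122). APLNSGGSNAKLT took 0.124, 0.0823, 0.0714, 0.0761 and 0.102% of MP reads and rose by 7.57 ± 1.48 (edgeR adjusted p = 0.00168). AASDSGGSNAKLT, which has 1 serine more than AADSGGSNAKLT, took 0.0361% ± 0.00752 of Naive and 0.0338% ± 0.0126 of MP reads, and MP over Naive gave -0.09 ± 0.51 on the log2 scale (SE; edgeR adjusted p = 0.889). It was the member listed in the most libraries, 12. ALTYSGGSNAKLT was uneven in MP, at 0.0996% in MP 3, 0.0254% in MP 4 and 0.00249% in MP 1, and its call against Naive (8.17; edgeR adjusted p = 0.0191) was lost without Naive 4 (adjusted p = 0.0543).

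None of the TRAJ42 loops that entered the test was called higher in tumours, though some had positive log2 fold changes that did not pass. AVIPGGSNAKLT, which did not enter the test, took 0.480% of Tumour 3. Another loop, of 13 residues, took 0.235% there, 0.00844% in Tumour 1 and 0.000954% in Tumour 5. Neither was listed in Naive or MP libraries. AVFNSGGSNAKLT took 0.205% of Tumour 5. Tumour 1 was led by AAFNSGGSNAKLT at 0.103%, Tumour 2 by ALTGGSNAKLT at 0.113% and Tumour 4 by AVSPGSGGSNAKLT at 0.0713%.

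The residues in front of the ends also differed between groups, by features chosen after values were seen and given without a test. The whole common end of TRAJ32 held 48.1% ± 1.57 of its Naive reads, and 19.0 to 26.8% in MP 1 to 4 but 62.3% in MP 5, where AHQNYGSSGNKLI has it. In tumours it held 24.8 to 55.3%. The whole common end of TRAJ39 held 29.9% ± 2.17 of its reads for Naive, 15.3% ± 6.09 for MP and 1.69% ± 3.48 for Tumour libraries. TRAJ42 went the other way: its whole common end held 7.89% ± 2.20 of Naive, 22.5% ± 7.20 of MP and 22.1% ± 14.9 of Tumour reads. By distinct CDR3s it made up 18.3, 22.4 and 21.0% in the same groups. These shares were 27.4, 21.6 and 23.5% for TRAJ32 and 26.2, 20.7 and 5.79% for TRAJ39. MP and Naive libraries then overlapped for TRAJ39 and TRAJ42 but not for TRAJ32. The common ends were defined from Naive CDR3s. TRAJ42 loops that kept GGSNAKLT but no more of the common end held 46.0% ± 6.07 of Naive and 20.8% ± 4.71 of MP reads. Of these loops, AFGGSNAKLT alone held 12.6 to 24.2% of Naive TRAJ42 reads. By distinct CDR3s their shares were 34.8% (Naive), 34.0% (MP) and 34.3% (Tumour). An acidic residue (D or E) stood in front of the TRAJ42 end in 46.2 to 60.4% of its MP reads, against 28.9 to 31.0% of its Naive and 7.49 to 33.1% of its Tumour reads. Over all assigned ends the means were 28.2% in MP, 31.0% in Naive and 22.3% in Tumour libraries. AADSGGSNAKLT alone held 19.6 to 29.9% of the TRAJ42 reads of MP, and by distinct CDR3s the share with an acidic residue was 34.7 to 46.3% for MP, which overlaps the Naive range of 32.7 to 40.8%.

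**Figure D4:**
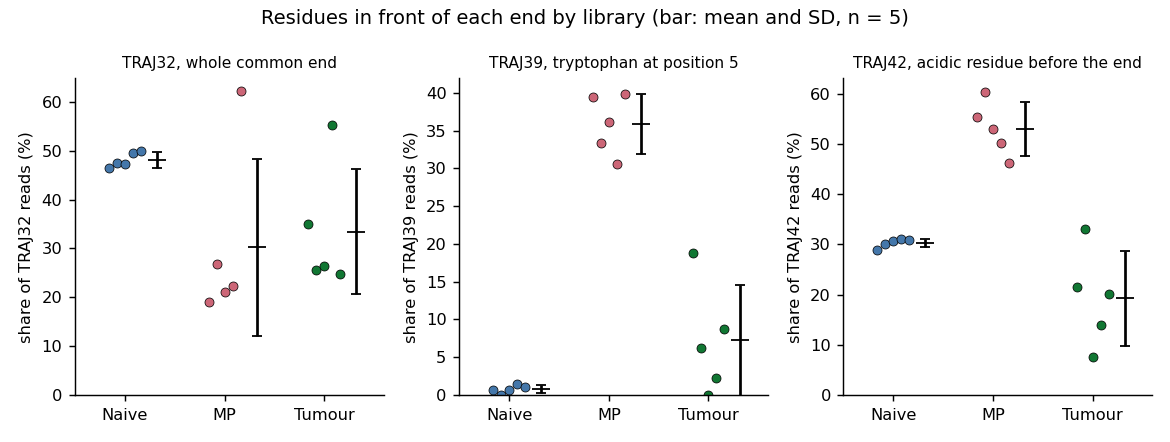
Share (%) of the reads of an end, by library, held by TRAJ32 loops with the whole common end, by TRAJ39 loops that start with AVS and have tryptophan at position 5, and by TRAJ42 loops with an acidic residue in front of the end; points are libraries and bars the mean and SD of 5, which for the TRAJ39 family in tumours would reach below 0 and ends there. The TRAJ39 family lies between 30.6 and 39.9% in MP and between 0 and 1.40% in Naive libraries, and MP 5 stands at 62.3% for TRAJ32.

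Peptides just outside the rule were common next to TRAJ39 only. Peptides that end in GAKLT without the full NAGAKLT numbered 387 and took 0.0685% ± 0.00859 of Naive, 0.510% ± 0.131 of MP and 0.0868% ± 0.109 of Tumour reads. They were led in MP by 2 loops of 8 residues, ALAGAKLT at 0.246, 0.0772, 0.169, 0.205 and 0.140% and ALRGAKLT at 0.141, 0.0883, 0.168, 0.140 and 0.0743% of reads in MP 1 to 5, each at most 0.00141% in a Naive library. With them counted as TRAJ39, its MP loops were shorter than its Naive loops by 1.01 residues, where the rule gave a difference of 0.120. Outside the TRAJ32 rule, 40 peptides ending in GNKLI took at most 0.0428% of a library, and outside the TRAJ42 rule 19 ending in NAKLT took at most 0.00470%.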

How the data were processed

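Read counts per CDR3 peptide, as the authors deposited them, were used without normalization, 1 list per library, with the lowest listed count 2. Per the labels' protocols, RNA from sorted cells was taken with Trizol and libraries were made by iRepertoire with arm-PCR, a multiplex PCR. The aligner, the CDR3 caller, any error filter and molecular identifiers were not given in the sources used here, so PCR reads are not independent molecules and intervals cover counting error only. Unlisted CDR3s count as 0 in means and tests. A fold "at least" was computed against 3 reads in each library of the group that lists none, and is a lower bound only where no unstated filter removed the CDR3.

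The ends, lists, rules and tests were chosen with earlier results of these data known. J segment ends other than the 3 were written from general knowledge. Shares of reads and of distinct CDR3s and mean lengths per library were compared by exact two-sided permutation tests (2 times the smaller tail, 252 divisions, smallest p 0.00794; 0.0159 with 1 library left out), with Benjamini-Hochberg adjustment over the segment ends that reached 10 reads in 3 or more libraries. CDR3s were tested with edgeR 4.0.16 (limma 3.58.1, R 4.3.3), robust quasi-likelihood, total reads as library size, each pair of groups fitted alone. Each SE was derived as the absolute log2 fold change over the square root of the test's F statistic. Where 1 group had no reads, the size of the fold change is not an estimate. The test was tried on simulated counts of MP against Naive only, with the same spread for every CDR3, which does not cover comparisons with tumours. Alternatives were TMM, DESeq2 1.42.0, other filters, shorter ends, folded reading errors, a replicate block and libraries left out. Values per library used python 3.11.15, numpy 2.4.6, scipy 1.17.1, pandas 2.3.3 and matplotlib 3.10.9.

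Named CDR3s were, per end, the 5 most abundant of each group, the 3 most abundant called each way in each comparison, those in at least 14 libraries (none) and those in at least 4 tumours, all under 15 residues; 3 of them are not spelled out. The most abundant CDR3 of each tumour, the tryptophan family, the common ends and the peptides just outside the rule were added, the last 3 after values were seen. The series' design text gives 5 mice for the spleen and lymph node cells and 5 for the tumours. Whether a Naive and an MP library of 1 number share a mouse is not stated there. Libraries were treated as unpaired. Deviations of same-numbered libraries correlated by 0.0125 to 0.0470 (MP and Naive), which cannot show whether they share mice. If Naive and MP libraries share mice, the tests between these groups treat linked libraries as independent. No 2 libraries of a group agreed within sampling noise.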

Additional observations from a re-analysis of the deposited data

Results flagged for a closer look

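In 83 groups of 5 values, 6 held a library whose gap to the next was large for the range of the group by Dixon's test, where chance gives about 1 in 20. Tumour 3 stood apart with 1.73% of reads on the TRAJ32 end and with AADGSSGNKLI at 1.000% of reads. MP 1 stood apart with an effective number of 119 TRAJ32 CDR3s, and MP 5 with the whole common end in 62.3% of its TRAJ32 reads. Tumour 2 stood apart with the whole common end in 7.91% of its TRAJ39 reads. MP 2 stood apart with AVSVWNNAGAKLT at 0.0235% of reads, the lowest of the 5 MP libraries.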

How the results depend on the processing

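Under alternatives, direction and side of the threshold were kept by 112 of 150 values for read shares and 106 of 123 for distinct shares. The same held for 96 of 123 for lengths and 1169 of 1249 for named CDR3s. Counts of calls were scored by a fold limit around the main count instead, and 73 of 94 stayed within it. The cause of the changes below was not tested. The read share of TRAJ32 in MP against Naive passed without the most abundant CDR3 of each end (-1.47 percentage points), without MP 1 and MP 5 (-1.63) and in edgeR on summed reads (log2 -0.85; -1.0 with a replicate block). That of TRAJ39 no longer passed without the most abundant CDR3 (0.144) or without MP 1 and MP 5 (0.244). TRAJ39 in Tumour against MP turned with shorter ends (-0.0843), without the most abundant CDR3 (-0.161) and with a replicate block (log2 -0.10), and against Naive without the most abundant CDR3 (-0.0168). TRAJ42 in Tumour against Naive was lost without CDR3s under 10 reads (-0.751) and with a replicate block (log2 -1.43, adjusted p = 0.0572).

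By distinct CDR3s, TRAJ32 in MP against Naive passed without CDR3s under 10 reads (-0.978), and in Tumour against Naive was lost with reading errors folded (-1.20). TRAJ39 in MP against Naive turned with shorter ends (0.417), without CDR3s under 10 reads (0.719, adjusted p = 0.0488) and with errors folded (0.0214), and in Tumour against Naive without CDR3s under 10 reads (0.444). TRAJ42 turned in MP against Naive without CDR3s under 10 reads (0.342) and in Tumour against MP without MP 1 and MP 5 (0.215). In length, TRAJ39 in MP against Naive turned with shorter ends (-1.01 residues) and passed without CDR3s under 10 reads (0.307), its Tumour against MP difference turned with shorter ends (0.931), and TRAJ42 in MP against Naive was lost without MP 1 and MP 5 (0.343).

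With 1 library left out, read share differences ranged, for TRAJ32, TRAJ39 and TRAJ42 in turn, from -1.57 to -1.03, 0.236 to 0.359 and -0.815 to -0.658 (MP minus Naive), -0.604 to -0.0640, -0.150 to 0.622 and -0.365 to -0.0892 (Tumour minus MP) and -1.80 to -1.58, 0.139 to 0.911 and -1.11 to -0.832 (Tumour minus Naive). Distinct shares ranged from -0.931 to -0.513, -0.165 to 0.108 and -0.779 to -0.438, from -1.34 to -0.764, -0.416 to 0.00156 and -0.305 to 0.00919, and from -2.10 to -1.52, -0.472 to -0.0694 and -0.956 to -0.615. Lengths ranged from -0.289 to -0.133, 0.0752 to 0.166 and 0.353 to 0.466, from -0.432 to -0.0477, -0.913 to -0.0217 and 0.363 to 0.781, and from -0.625 to -0.240, -0.792 to 0.0985 and 0.760 to 1.18.

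Called CDR3s of the 3 ends, higher and lower in MP than in Naive, were 25 and 159, against 104 and 1162 without a filter, 42 lower at 50 reads, 12 higher without MP 1 and MP 5, and 16 to 27 and 117 to 176 with 1 library left out. Against MP, tumours had 2 higher and 52 lower, against 15 and 344 without a filter, 22 lower at 50 reads, 9 lower without MP 1 and MP 5, and 1 to 3 and 24 to 59 with 1 library left out. Against Naive, they had 3 and 254, against 9 and 1896 without a filter, 53 lower at 50 reads, and 2 to 4 and 185 to 260. With a replicate block, Tumour against MP had 0 higher and 11 lower. The labels do not say that replicate numbers pair libraries.

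Of named CDR3s, these changed sign with a replicate block: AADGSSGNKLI (-2.23), AFGNAGAKLT (-2.07) and another TRAJ39 CDR3 (-0.58) in MP against Naive, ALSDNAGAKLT (-0.17) and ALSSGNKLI (-3.54) in Tumour against MP, and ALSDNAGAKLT (-1.87), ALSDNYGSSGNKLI (-5.96) and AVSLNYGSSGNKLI (-6.23) in Tumour against Naive. With 1 library left out, the same comparisons changed sign and ranged from -0.98 to 0.73 for AFGNAGAKLT, -0.06 to 4.36 for the other TRAJ39 CDR3, -8.73 to 4.02 for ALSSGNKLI, -7.72 to 4.10 for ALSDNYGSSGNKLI and -7.34 to 4.31 for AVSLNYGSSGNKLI. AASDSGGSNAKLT in MP against Naive ranged from -0.25 to 0.05, and was 0.05 without MP 4 and 0.03 without MP 5.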

Other observations

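Within the Naive group the TRAJ42 share of distinct CDR3s set Naive 3 and Naive 4 apart from the others. This split was read from the TRAJ42 values, and the spread between Naive libraries was not compared over all ends. Of 40 segment ends, TRAJ42, TRAJ15 and TRAJ24 were those whose share of distinct CDR3s put Naive 3 and Naive 4 on one side of Naive 1, 2 and 5. The lower of the values of Naive 3 and 4 was 1.45 times the highest of the others for TRAJ42. For TRAJ15 and TRAJ24, Naive 3 and 4 lay below the others. The same ratio, 0.936 and 0.890, then spans all 5 libraries and does not measure the gap. Of 343 TRAJ42 CDR3s listed in exactly 2 Naive libraries, 109 (31.8%) were listed in Naive 3 and Naive 4, and the other pairs held 7 to 43 each. For the ends other than the 3, this pair held 1035 of 8636, for TRAJ32 45 of 409 (11.0%) and for TRAJ39 22 of 226 (9.73%). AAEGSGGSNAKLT took 0.0566 and 0.0342% of the reads of Naive 3 and Naive 4 and at most 0.00114% in the other Naive libraries. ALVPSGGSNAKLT took 0.0420 and 0.0311%, and at most 0.000285% in the others. These CDR3s were picked for this gap after their values were seen, and neither was listed in MP or Tumour libraries.

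Further members of the TRAJ39 tryptophan family also differed between MP libraries. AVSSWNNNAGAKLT took 0.0363% of MP 3 and 0.0101% of MP 1, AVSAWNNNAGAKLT 0.0239% of MP 1 and 0.0287% of MP 5, and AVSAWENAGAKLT 0.0390% of Tumour 1 and 0.00102% of MP 5. Just outside the rule, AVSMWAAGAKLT, with tryptophan at the same position, took 0.0871% of Tumour 2, and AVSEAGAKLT took 0.219% of Tumour 4. Each of these last 2 was listed in 1 library. They were chosen after their values were seen.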
